A study of Rattus norvegicus with 8 samples.

Results

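The aminoacyl-tRNA synthetases are the enzymes that join each amino acid to its tRNA, and their genes were examined in rat muscle after a meal of amino acids or of whey protein hydrolysate. Members were the probe sets whose annotation gave exactly 1 gene symbol and whose symbol named a cytosolic synthetase, a mitochondrial synthetase, or Aimp1 or Aimp2, the scaffold proteins of the multisynthetase complex. This gave 53 of 31042 probe sets and 34 of 14217 genes. They comprised 19 cytosolic enzyme genes (34 probe sets), 2 scaffold genes (3 probe sets) and 13 mitochondrial enzyme genes (16 probe sets). Lars2, Mars2 and Pars2 had no probe set with exactly 1 symbol and are not analysed here.

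All 8 animals were male Sprague-Dawley rats, labelled as 6 weeks old, that had swum for 2 h after 3 days of practice and after a day on 5 g of feed. Right after the swim 4 rats were gavaged with carbohydrate plus free amino acids (AAM, the amino acid mixture) and 4 with carbohydrate plus whey protein hydrolysate (WPH), which is whey protein cut into peptides. Both groups were given the same energy, 44 kJ. The labels put the epitrochlearis muscle of each rat on 1 array, as a biological replicate. No unfed or rested rats were among the 8, and neither the time of sampling nor the barrel in which each rat swam was given in the sources used here. The question is whether the form of the same amino acids, free or in peptides, matters to gene expression in exercised muscle.

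Most synthetases read 1 kind of amino acid and the matching tRNAs, while the product of Eprs1 serves both glutamate and proline. Charged tRNA is what the ribosome consumes. In the cytosol several synthetases are bound together with Aimp1 and Aimp2 in the multisynthetase complex, and the others work free of it. Mitochondria use a separate nuclear-encoded set, whose symbols end in 2, although the products of Kars1 and Gars1 serve both compartments. When amino acids are scarce, uncharged tRNA activates the kinase GCN2, the transcription factor ATF4 is made, and many cytosolic synthetase genes are among the known ATF4 targets.

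Fast fibre markers fit the labelled tissue, with mean deposited levels of 11.3 or more for all 7 of them on arrays whose highest value was 14.2. The deposited values are on a log2-like scale, and those of the synthetase genes hardly moved between arrays. No member probe set ranged over more than 0.1, and the SD over the 8 arrays was 1.82e-05 for the median cytosolic enzyme gene and 3.36e-06 for the median mitochondrial one. The median over all genes was 5.37e-06. The SD was above that median for 16 of 19 cytosolic and 5 of 13 mitochondrial enzyme genes. Mean levels of the representative probe sets ran from 7.03 to 10.1 for the cytosolic and from 6.29 to 8.51 for the mitochondrial enzymes, and the part of level in the spread was not tested. Differences of this size say nothing about a fold change. Each is therefore scaled to the pooled SD of the 2 groups and called the standardized difference, which is below 0 where the WPH mean was the lower one. Single arrays are given as the deviation from the probe set's mean in units of its SD over the 8 arrays. Where a gene had several probe sets, the one with the highest mean level represents it.

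The promoters of the members differed between the cytosolic and the mitochondrial set in a way that the choice of members did not use. RefSeq promoter windows of 300 bases on GRCr8, 250 before and 50 after the annotated start, were matched for 32 of the 34 genes, all but Rars1 and Gars1. The letters TGATGNAA, the core of the composite element that ATF4 binds with C/EBP partners, were searched on both strands. They stood in 7 of 17 cytosolic enzyme promoters, in 0 of 13 mitochondrial ones and in 0 of 2 scaffold ones. Among the promoters of all genes on the array the share was 2.22%, and among all 33469 promoters of the table it was 3.98%. The 7 genes were Aars1, Cars1, Iars1, Mars1, Nars1, Tars1 and Yars1. Elements of 5 of the genes are shown so that their likeness can be seen, in the orientation of the element, with the element in capitals. All 5 read TGATGCAA, as do 7 of the 8 elements found, and the other reads TGATGAAA:
Cars1 (chr1:208225333-208225364, plus strand): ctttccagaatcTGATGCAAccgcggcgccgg
Tars1 (chr2:62114810-62114841, plus strand): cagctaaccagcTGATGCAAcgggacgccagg
Yars1 (chr5:146820189-146820212, plus strand): tacgagctcagcTGATGCAAcctg
Mars1 (chr7:65023751-65023782, plus strand): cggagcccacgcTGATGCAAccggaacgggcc
Iars1 (chr17:15193657-15193688, plus strand): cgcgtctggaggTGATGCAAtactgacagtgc

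Most of these elements lay close to the start. The first base of the element was at -27 in Tars1, -24 in Iars1, -17 in Mars1 and -14 in Nars1, and beyond the start at 18 in Cars1 and 39 in Yars1. The E-box CACGTG, which Myc binds, stood in 5 of 17 cytosolic enzyme promoters (Aars1, Farsb, Iars1, Tars1 and Vars1) and in 1 of 13 mitochondrial ones, Ears2. Its share over the genes on the array was 8.65%. The ETS core CCGGAAG, bound by GABP among others, was found in both sets, in 9 of 17 cytosolic, 5 of 13 mitochondrial and both scaffold promoters, against 14.2% on the array. The strict NRF1 palindrome, searched likewise, stood in Wars2 alone among the 32, with a share of 1.54% on the array. The E-box and ETS searches also covered both strands. In the member promoters no element of one search overlapped an element of another, while the 2 ETS cores of Aimp2 overlap each other. A match describes the letters and is not a measured binding site. Hars1 and Hars2, neighbouring genes that are read in opposite directions from a shared interval, each held 2 ETS cores, and since their windows overlap these letters are counted in both sets.

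Whole windows are shown for 3 genes to which the results return, with the searched elements in capitals. Tars1 holds the ATF4 composite element (here as TTGCATCA, since it lies on the other strand) and an E-box. Wars1 and Rars2 hold an ETS core each and neither of the other elements.
Tars1 (chr2:62114753-62115052, minus strand): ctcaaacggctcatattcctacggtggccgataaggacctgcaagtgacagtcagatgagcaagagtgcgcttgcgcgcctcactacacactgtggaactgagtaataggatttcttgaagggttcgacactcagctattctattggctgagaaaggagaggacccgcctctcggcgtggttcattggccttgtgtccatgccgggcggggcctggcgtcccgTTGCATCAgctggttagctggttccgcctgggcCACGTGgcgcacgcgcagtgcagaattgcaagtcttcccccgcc
Wars1 (chr6:133571596-133571895, minus strand): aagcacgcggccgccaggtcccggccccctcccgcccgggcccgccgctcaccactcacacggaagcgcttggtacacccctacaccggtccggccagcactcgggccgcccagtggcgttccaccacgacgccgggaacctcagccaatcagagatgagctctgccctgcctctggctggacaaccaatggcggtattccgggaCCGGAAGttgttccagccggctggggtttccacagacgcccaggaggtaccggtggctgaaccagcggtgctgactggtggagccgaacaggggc
Rars2 (chr5:53977623-53977922, plus strand): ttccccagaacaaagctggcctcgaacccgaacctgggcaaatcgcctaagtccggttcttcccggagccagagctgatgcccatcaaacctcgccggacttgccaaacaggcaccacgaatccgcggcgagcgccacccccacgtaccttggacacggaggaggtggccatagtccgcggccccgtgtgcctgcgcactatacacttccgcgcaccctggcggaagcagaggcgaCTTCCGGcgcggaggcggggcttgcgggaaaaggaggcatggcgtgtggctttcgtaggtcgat

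**Figure D1:**
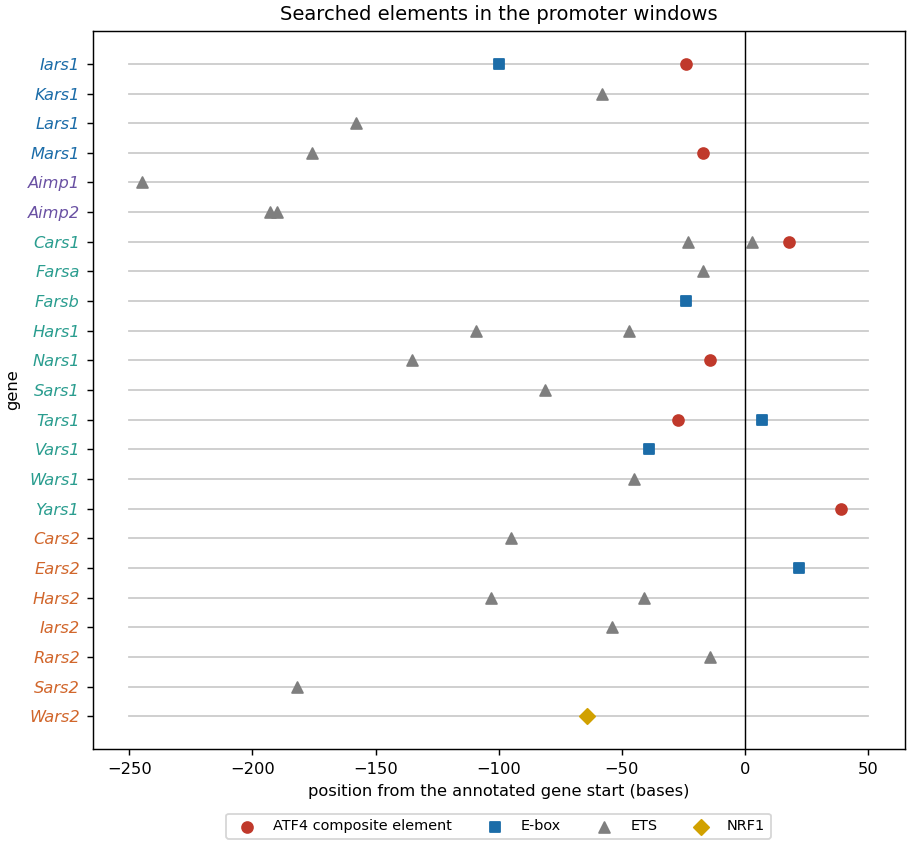
Positions of the 4 searched elements in the promoter windows of member genes that hold at least 1 (Aars1 is not drawn), in bases from the annotated start. Gene names are coloured by set (blue, complex enzymes; purple, scaffold; green, free cytosolic enzymes; orange, mitochondrial enzymes), and the ATF4 composite element (red) appears in 6 of the cytosolic enzyme genes drawn and in no mitochondrial one.

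No synthetase gene passed the test between the meals. By limma with Benjamini-Hochberg adjustment over all probe sets, 0 of 53 member probe sets had an adjusted p below 0.05, as did 0 of 31042 overall (0.0%). At an unadjusted p below 0.05 there was 1 member probe set lower after WPH, that of Rars2, where 1.86% of all probe sets were, and 0 were higher, where 1.71% were. In 2 member probe sets, of Gars1 and Wars1, the 4 WPH arrays all lay below the 4 AAM arrays, and in 0 all lay above. Over all probe sets 2.23% did not overlap, 1.15% with WPH lower and 1.08% with WPH higher. Each count moved with the arrays used. Member probe sets with an unadjusted p below 0.05 and lower after WPH numbered 3 without AAM replicate 2, 5 without AAM replicate 3, 3 without WPH replicate 1, 2 without WPH replicate 2 and 2 without WPH replicate 4. The shares over all probe sets were then 1.71%, 2.41%, 1.69%, 2.0% and 1.72%. Member probe sets that did not overlap numbered 6 without AAM replicate 3 (5.32% of all) and 5 without WPH replicate 1 (4.18% of all). 1 member probe set was higher after WPH at an unadjusted p below 0.05 without WPH replicate 3 (1.62% of all) and likewise without WPH replicate 4 (1.83% of all).

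Small differences towards lower values after WPH were the more common direction. Of the cytosolic enzyme genes 15 of 19 and of the mitochondrial enzyme genes 10 of 13 were lower after WPH, where 53.9% of all genes were. The median standardized difference was -0.28 for the cytosolic and -0.46 for the mitochondrial enzymes, beside -0.058 for all genes. This direction did not hold under another scaling of the arrays. After quantile normalization 8 of the 17 cytosolic genes that still varied and 6 of 13 mitochondrial genes were lower, beside 45.5% of all genes. With each array centred on its median 18 of 19 and 13 of 13 were lower, and so were 88.8% of all genes. Without AAM replicate 1 or without WPH replicate 4 the cytosolic count was 10 of 19, and the median was then -0.062 and -0.014. Of the 15 genes with more than 1 probe set, 10 had all of them on the same side of 0 and 5 did not.

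**Figure D2:**
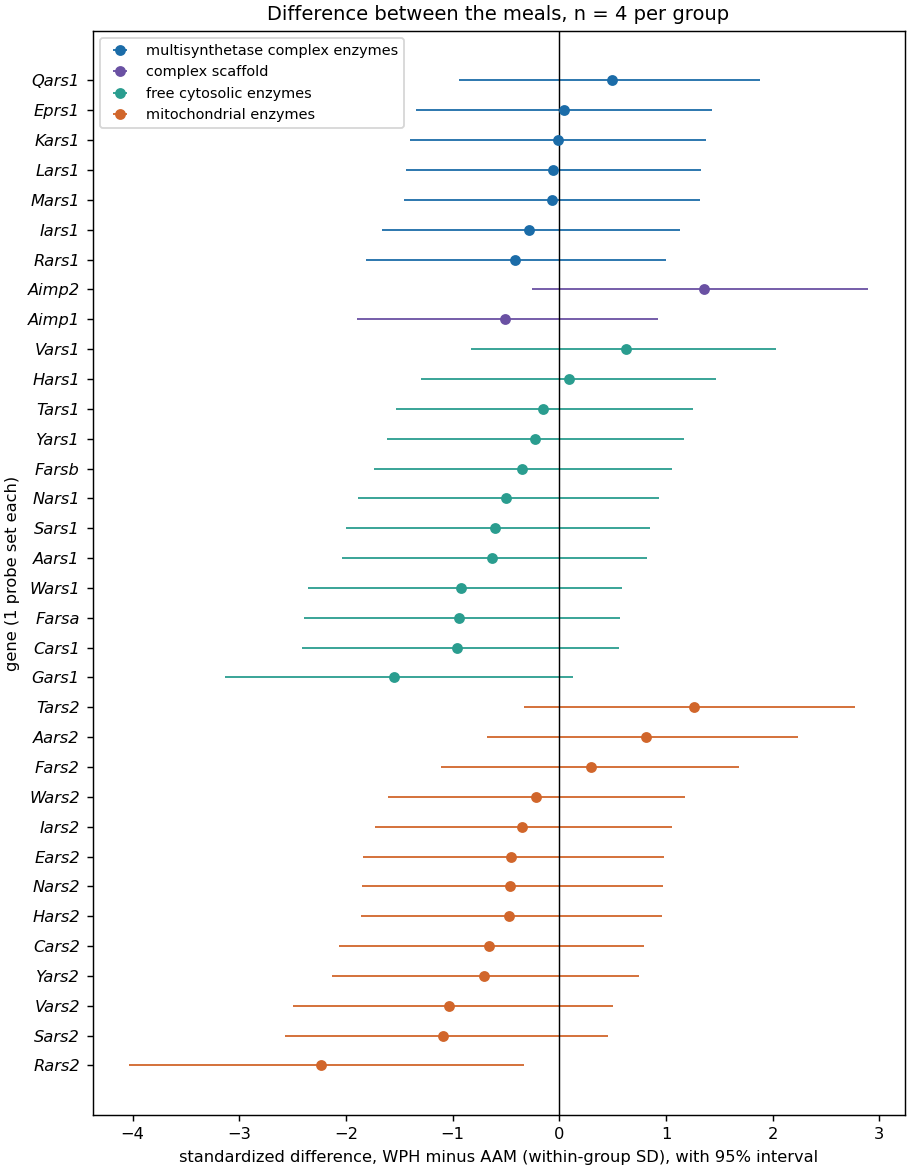
Standardized difference (WPH minus AAM, in within-group SDs) of each gene's representative probe set, with its 95% interval, n = 4 per group, ordered within each set. All intervals cross 0 except that of Rars2, which lies at -2.23 (-4.03 to -0.33).

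Within the multisynthetase complex no enzyme stood apart between the meals. The 7 enzymes measured had standardized differences from -0.42 to 0.49 with a median of -0.056, and 5 of 7 were lower after WPH. Lars1, the leucyl enzyme that also acts as a leucine sensor upstream of mTORC1, had deviations of 0.99, 0.074, -1.80 and 0.85 on AAM 1 to 4 and of 0.73, 0.54, -1.06 and -0.34 on WPH 1 to 4. The groups overlapped across nearly their whole range, with AAM 3 the lowest array and WPH 3 next. The standardized difference of Lars1 was -0.056 (95% interval -1.44 to 1.33, unadjusted p = 0.937 by limma). Iars1, the isoleucyl enzyme, had 1.43, -0.076, -1.06 and 0.30 after AAM and 0.81, 0.52, -0.27 and -1.66 after WPH. The highest array of Iars1 was AAM 1 and the lowest WPH 4, and the standardized difference was -0.28 (-1.66 to 1.13, unadjusted p = 0.692 by limma). These 2 differences turned above 0 when single arrays were left out, reaching 0.27 for Lars1 without WPH replicate 3 and 0.23 for Iars1 without WPH replicate 4. Rars1, for arginine, and Qars1, for glutamine, stood at the ends of the complex, with standardized differences of -0.42 and 0.49.

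The scaffold genes pointed in opposite directions. Aimp2 had deviations of -0.078, -0.034, -1.89 and -0.30 after AAM and of 0.58, 1.31, 0.98 and -0.56 after WPH. Of its WPH arrays 3 lay above all AAM arrays, and WPH 4 lay among them. The standardized difference of Aimp2 was 1.36 (-0.26 to 2.89, unadjusted p = 0.089 by limma, exact two-sided permutation p = 0.114), and it was 2.12 without WPH replicate 4 and -0.17 with median centring. Aimp1 had -0.51. The third scaffold protein of the complex is encoded by Eef1e1, which was no member. Its value of -0.43 is given here because the complex includes it.

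Among the 12 enzymes that work free of the complex, 10 were lower after WPH, with a median of -0.55. Gars1, the glycyl enzyme, had 0.18, 0.57, 1.14 and 0.60 after AAM and -0.036, -0.26, 0.016 and -2.22 after WPH. The groups did not overlap, but 3 WPH arrays lay just below the lowest AAM array and WPH 4 lay far below. Its deposited difference was -1.73e-05 ± 7.59e-06 (SE, n = 4 per group) and its standardized difference -1.55 (-3.13 to 0.13). The exact two-sided permutation p was 0.0286, the smallest that the 35 splits can give, with an adjusted p of 0.9998 by limma over all probe sets. After quantile normalization the difference of Gars1 was -0.71 (unadjusted p = 0.316 by limma), and no member probe set was without overlap there. Leaving out single arrays gave values between -2.24, without WPH replicate 4 (unadjusted p = 0.0241 by limma), and -1.28, without AAM replicate 3. The fourth-root scale gave -2.85 (unadjusted p = 0.00727 and adjusted p = 0.777 by limma) and median centring -1.35. The other probe set of Gars1 had -0.94.

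Wars1, the tryptophanyl enzyme, is known for its induction by interferon gamma. Its brighter probe set had 0.053, -0.62, 2.37 and -0.057 after AAM and -0.14, -0.30, -0.71 and -0.61 after WPH. AAM 3 was thus the highest array by far. AAM 1 and AAM 4 lay just above the WPH arrays and AAM 2 lay among them, so the groups overlapped through 1 array. The standardized difference of this probe set was -0.92 (-2.36 to 0.59, unadjusted p = 0.221 by limma). The dimmer probe set of Wars1 had 0.59, -0.17, 1.46 and 1.32 after AAM and -0.57, -0.94, -0.62 and -1.08 after WPH, so that here the groups did not overlap. AAM 3 was again the highest. The deposited difference of the dimmer probe set was -9.19e-07 ± 3.86e-07 (SE, n = 4 per group). Its SD over the 8 arrays was 5.73e-07, which is above that of only 8.2% of all probe sets. Its standardized difference was -2.87 (-4.93 to -0.72, unadjusted p = 0.0512 by limma, exact two-sided permutation p = 0.0286, adjusted p = 0.9998), and it became 0.14 after quantile normalization. The dimmer probe set is shown because its groups did not overlap. That choice fixes the permutation p at its smallest value and favours an interval away from 0. AAM 3 is also the array on which 25 of 28 measured interferon-stimulated genes, a list added with results known, were highest. The mean deviation of that list was 2.12 on AAM 3 and between -0.47 and 0.059 on the other 7 arrays. Its part in the difference of Wars1 was not tested. Without AAM replicate 3 the dimmer probe set had -2.72 and the brighter one -0.75. Without AAM replicate 2 they had -5.48 and -1.38. With median centring the dimmer one had -0.57 and the brighter one -1.71, so that their order changed.

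Other free enzymes had groups that overlapped. Cars1, the cysteinyl enzyme, had -0.66, 1.0, 0.94 and 0.53 after AAM and -0.057, -1.39, 0.92 and -1.28 after WPH. Farsa, the catalytic subunit of the phenylalanyl enzyme, had 0.55, -0.24, -0.0094 and 1.49 after AAM and 1.11, -0.51, -1.37 and -1.02 after WPH. Their standardized differences were -0.96 (-2.41 to 0.56) for Cars1 and -0.94 (-2.39 to 0.57) for Farsa. Single arrays moved both: Cars1 had -1.8 without WPH replicate 3, and Farsa had -2.16 without WPH replicate 1 (unadjusted p = 0.0312 by limma). After quantile normalization Cars1 had -0.36 and Farsa turned to 0.71. Of the 4 probe sets of Cars1, 1 went the other way, with 0.53. The one furthest below 0 had -1.61 (-3.21 to 0.083, unadjusted p = 0.054 by limma). Vars1, the valyl enzyme, had -0.55, 0.82, -1.34 and -0.20 after AAM and 1.69, -0.60, 0.78 and -0.60 after WPH. Its difference of 0.62 (-0.83 to 2.03) was the largest towards WPH among the cytosolic enzymes. The enzymes of the branched-chain amino acids, Lars1, Iars1 and Vars1, therefore showed no common direction.

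**Figure D3:**
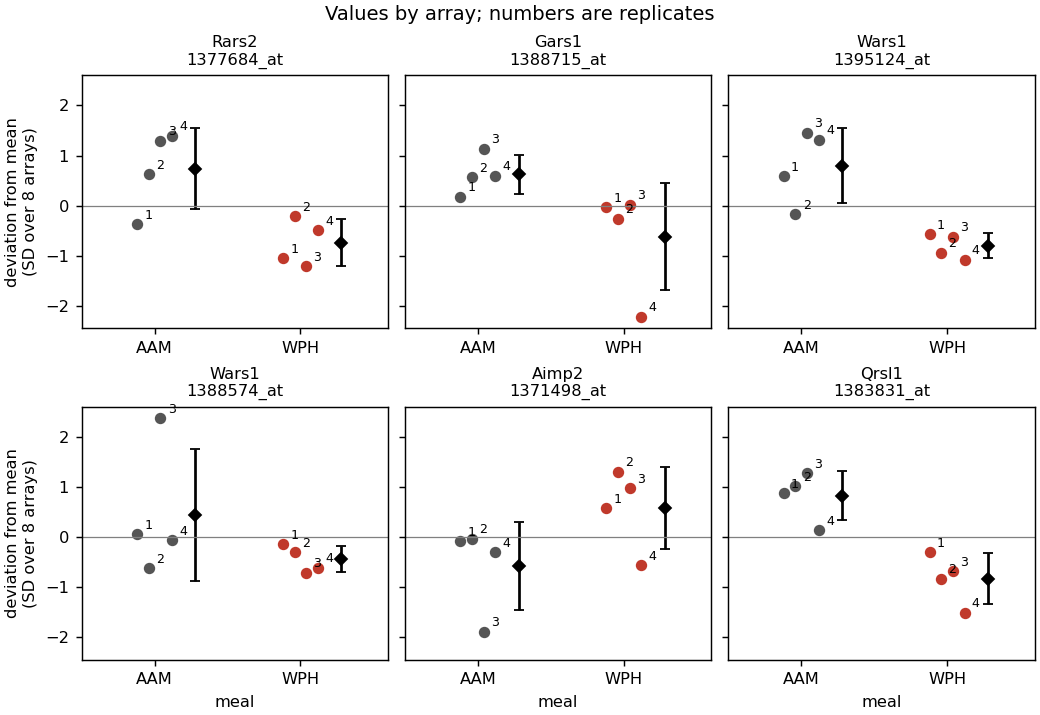
Deviation of each array from the probe set's mean, in SDs over the 8 arrays. Shown are Rars2, Gars1 and Aimp2, the member genes with the smallest p-values by their representative probe sets, both probe sets of Wars1, and Qrsl1. Among the members, the groups do not overlap for Gars1 and the dimmer Wars1 probe set. Diamonds and bars give the group mean ± SD (n = 4) and small digits the replicate. The upper Wars1 panel is the dimmer and the lower one the brighter probe set. WPH replicate 4 lies far below the other WPH arrays of Gars1, whose standardized difference was -2.24 without it. AAM replicate 3 lies far above the other AAM arrays of the brighter Wars1 probe set.

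Of the mitochondrial enzymes, Rars2 had the smallest p-value. Rars2, the mitochondrial arginyl enzyme, had -0.37, 0.63, 1.30 and 1.40 after AAM and -1.05, -0.21, -1.21 and -0.49 after WPH. AAM 1 was the only AAM array that lay among the WPH arrays. The deposited difference was -3.49e-06 ± 1.11e-06 (SE, n = 4 per group) and the standardized difference -2.23 (-4.03 to -0.33). The unadjusted p was 0.0176 and the adjusted p 0.9998 by limma, and the exact two-sided permutation p was 0.0571. Leaving out single arrays gave values between -4.12, without AAM replicate 1, and -1.93. The difference depended on the scaling of the arrays. With median centring it was -0.70 (unadjusted p = 0.355 by limma), and quantile normalization turned it to 0.38.

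Other mitochondrial enzymes had overlapping groups. Sars2, for serine, had 0.98, -0.24, -0.70 and 1.95 after AAM and -0.82, -0.58, -0.79 and 0.20 after WPH, with a standardized difference of -1.09 (-2.57 to 0.46). Vars2, for valine, had 0.031, -0.94, 1.71 and 1.12 after AAM and 0.35, -0.63, -1.03 and -0.61 after WPH, with -1.03 (-2.5 to 0.50). In both genes 2 AAM arrays lay above every WPH array and the other 2 lay among them. Without AAM replicate 2 Vars2 had -2.04, and with median centring it had -2.73 (unadjusted p = 0.0191 by limma). Tars2, for threonine, had -1.25, -0.077, 0.16 and -1.04 after AAM and -0.72, 1.46, 1.28 and 0.18 after WPH. Its difference of 1.26 (-0.33 to 2.77) pointed towards WPH, as did the 1.33 of its other probe set, but it was -0.45 after quantile normalization and -0.49 with median centring. Yars2, for tyrosine, had 0.57, 0.11, 0.17 and 0.57 after AAM and 0.55, -0.0052, 0.44 and -2.41 after WPH. The low value of WPH 4 stood alone, and the standardized difference was -0.71 (-2.13 to 0.75), moving to -0.10 without WPH replicate 4. The 8 other mitochondrial genes lay between -0.66 for Cars2 and 0.81 for Aars2.

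Many cytosolic enzyme genes were high or low on the same arrays, in both meal groups. On AAM 1, AAM 4 and WPH 1, 14, 16 and 15 of the 19 lay above their own mean. On AAM 3 and WPH 4 the counts above the mean were 5 and 1, and on WPH 3 the count was 4. Over all genes the share above the mean was between 45.9% and 51.7% on each array. WPH 4 was the lowest array for 8 of the 19 genes and AAM 3 for 5, where 14.3% and 18.6% of all genes had their lowest value. The pair AAM 3 and WPH 4 was picked after the cytosolic values were seen, which favours the cytosolic set in the counts that follow. Both of these arrays held the 2 lowest values in 8 of 19 cytosolic genes (42.1%), in 0 of 13 mitochondrial genes and in 12.2% of all genes. They also did so in 5 of 11 genes that bring charged tRNA to the ribosome (45.5%). Among 14 accessory genes of tRNA charging the count was 3 (21.4%). The shared low arrays were thus not particular to the synthetases. The mean deviation of the cytosolic enzymes ran from -0.61 to 0.64 over the AAM arrays and from -0.92 to 0.63 over the WPH arrays, so the groups overlapped.

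**Figure D4:**
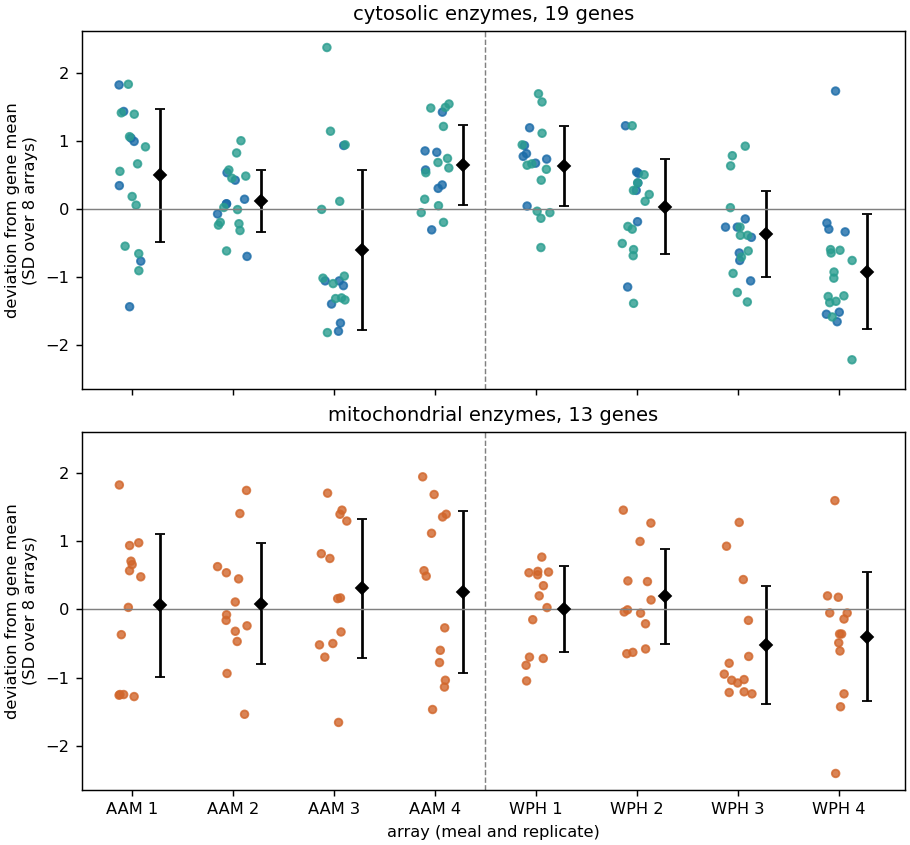
Deviation of each enzyme gene from its own mean, in SDs over the 8 arrays, by array; diamonds and bars give the mean ± SD over genes, and colours are blue for complex, green for free cytosolic and orange for mitochondrial enzymes. On the values as deposited, the cytosolic genes lie mostly below 0 on AAM replicate 3 and WPH replicate 4. There 5 and 1 of 19 are above their mean. The mitochondrial genes are spread around 0 on AAM replicate 3.

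Members of the complex and free enzymes shared the pattern. Tars1 had 0.91, 0.019, -1.82 and 1.21 after AAM and 0.66, 0.21, -0.27 and -0.93 after WPH. Rars1 had 1.04, 0.42, -1.40 and 0.83 after AAM and 0.67, 0.38, -0.42 and -1.52 after WPH. Both genes, which are named here after their values were seen, have AAM 3 and WPH 4 as the lowest arrays. Of the 4 probe sets of Eprs1, the glutamyl and prolyl enzyme, 3 had their highest value on AAM 1 and their lowest on AAM 3. By their representative probe sets, Wars1, Gars1, Cars1, Sars1 and Kars1 were exceptions on AAM 3, where they lay above their own mean. The dimmer probe sets of Gars1 (-0.99), Kars1 (-0.84) and Cars1 (-0.087, -0.41 and -1.25) lay below theirs, and that of Wars1 (1.46) lay above. Kars1 was the only cytosolic enzyme gene whose representative probe set lay above its mean on WPH 4, with 1.73. The dimmer probe set of Kars1 had -0.25 there. Eef1e1, the scaffold gene outside the member list, had 1.43, -0.16, -1.17 and 0.79 after AAM and 0.46, 0.17, 0.11 and -1.64 after WPH, the same low arrays again.

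The mitochondrial enzymes matched the cytosolic ones on some arrays and not on others. On WPH 3 and WPH 4 they were low too, with 3 of 13 above their own mean on each and mean deviations of -0.52 and -0.40. On AAM 3 they were not, with 8 of 13 above and a mean deviation of 0.31, where the cytosolic enzymes had -0.61. On AAM 1 and WPH 1 their means were 0.061 and 0.0059, where the cytosolic enzymes had 0.49 and 0.63. The difference between the sets was not tested, since the genes were chosen with results known. The shared low arrays of the cytosolic enzymes were seen on the values as deposited, and under other scalings they stood out less or not at all from the genes as a whole on AAM 3. After quantile normalization AAM 3 was the lowest array for 6 of 17 cytosolic genes (35.3%), which is below the 55.6% of all genes, and for 9 of 13 mitochondrial ones. WPH 4 was then the lowest for 1 of 17 cytosolic genes (5.88%), beside 4.63% of all genes. With median centring AAM 3 was the lowest for 13 of 19 cytosolic genes (68.4%), beside 65.4% of all genes, and WPH 4 for 4 of 19 (21.1%), beside 2.55%. The contrast between the sets on AAM 3 did not hold under these scalings either. There the mitochondrial and cytosolic means were -1.3 and -0.42 after quantile normalization, and -0.82 and -1.06 with median centring.

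**Figure D5:**
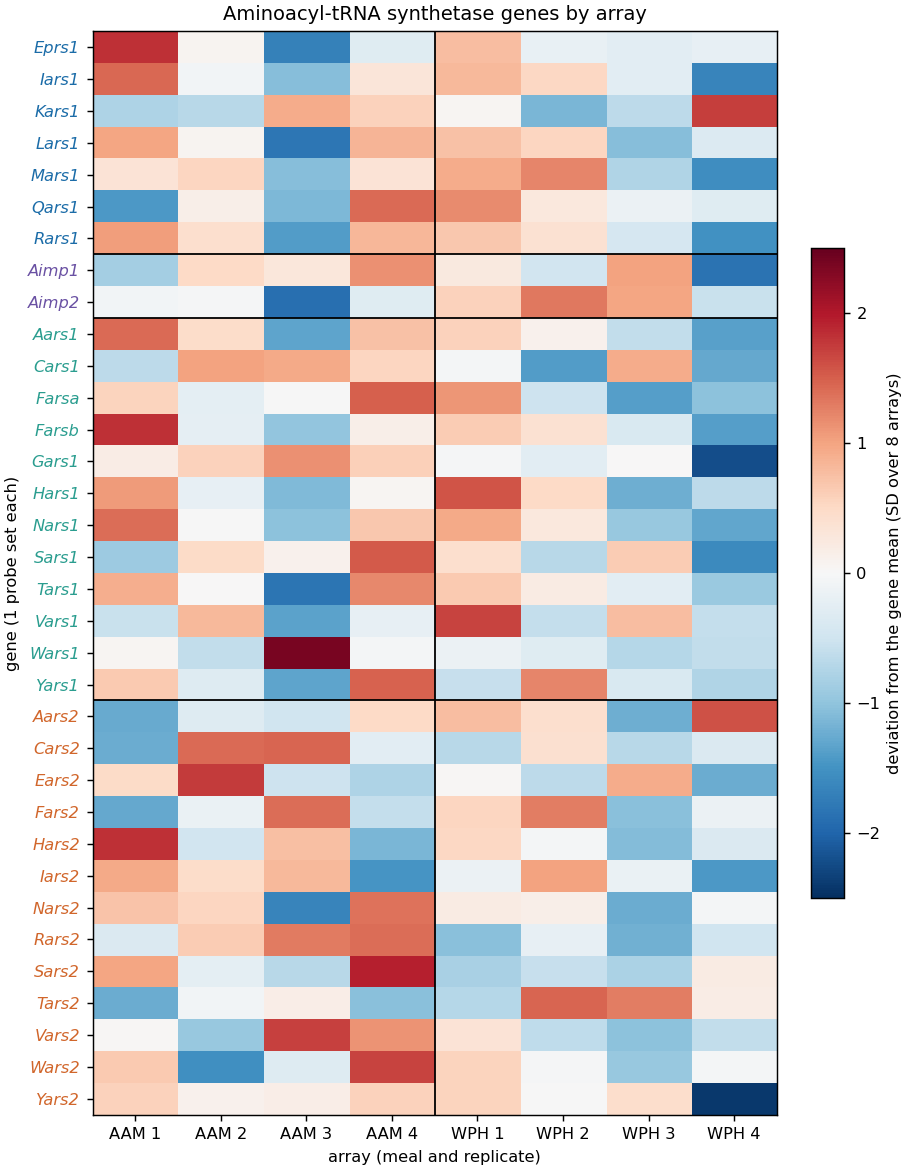
Deviation of each of the 34 genes from its mean, in SDs over the 8 arrays (red above, blue below), with the sets separated by lines and the meals by a vertical line. On the values as deposited, most cytosolic enzymes are blue on AAM replicate 3 and WPH replicate 4, where 14 and 18 of 19 lie below their mean. On AAM replicate 3, 8 of 13 mitochondrial ones lie above theirs.

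Marker genes of cell types differed between these arrays as well. On WPH 4 the 7 fast fibre markers had a mean deviation of 1.17 and the 4 fibroblast markers 1.45, both the highest of the 8 arrays, while the 5 slow fibre markers had -0.86. The 5 macrophage markers (0.97) and the 4 neutrophil markers (0.77) were also highest on WPH 4. Mean levels of the neutrophil markers were only 6.18 to 6.31, below the array median of 6.66, and those of the erythrocyte markers were 6.44 to 6.86. The part of level in these deviations was not tested. On AAM 3 the markers of endothelium (3 genes, 1.09), erythrocytes (3 genes, 1.06) and adipocytes (4 genes, 1.03) were above their means and those of neutrophils (-0.95) and fast fibres (-0.74) below, while the slow fibre markers had -0.04. Over the AAM arrays the fast fibre mean ran from -0.74 to -0.15 and over the WPH arrays from -0.34 to 1.17. All these are values as deposited, and for most of the lists the order of the arrays changed with the scaling. The slow fibre and adipocyte markers kept their order. On WPH 4 the slow fibre markers had -0.86 with median centring and -0.88 after quantile normalization. On AAM 3 the adipocyte markers had 0.97 with median centring and 1.0 after quantile normalization (3 genes). With median centring the fibroblast markers stayed highest on WPH 4 (1.18). Fast fibre and neutrophil markers were then highest on AAM 2 (1.52 and 0.83) and macrophage markers on AAM 1 (1.08). After quantile normalization no fast fibre marker still varied, and the 2 fibroblast markers that did were highest on AAM 3 (1.23). The part of the markers in the pattern of the synthetases was not tested. Fewer cells of a type and less RNA per cell cannot be told apart in whole muscle.

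The cytosolic enzymes with and without the ATF4 composite element were both low on the same arrays. For the 7 with the element the mean deviation was -0.95 on AAM 3 and -1.26 on WPH 4, and 1 and 0 of them lay above their mean there. For the 10 without it the means were -0.46 and -0.50, with 3 and 1 above. After WPH 7 of 7 with the element and 6 of 10 without it were lower, beside 53.9% of all genes. The median standardized differences were -0.28 and -0.036. This split is given on the values as deposited only, and the count over all cytosolic enzymes changed with the scaling and with single arrays. Atf4, named after its values were seen, had 1.11, 0.17, -1.57 and 1.20 after AAM and -0.044, -0.051, 0.45 and -1.27 after WPH. Its lowest arrays were AAM 3 and WPH 4, but most genes of the GCN2 and ATF4 arm did not share this. Of those 15 genes 1 had its 2 lowest values on these arrays (6.67%, beside 12.2% of all genes), and 8 of 15 lay above their mean on each. The mean deviation of the 15 was 0.011 on AAM 3 and -0.25 on WPH 4. Asns, an ATF4 target that encodes asparagine synthetase, had 1.27, -0.14, 1.09 and -1.48 after AAM and -1.19, -0.15, -0.12 and 0.71 after WPH. It was thus above its mean on both of those arrays. The mean level of Asns was only 6.16, the lowest of the 15 genes, which ran up to 11.3, and below the array median of 6.66. The part of level in this contrast was not tested.

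Other genes of the pathway made no adjusted call either, by the same limma fit. Of 14 accessory genes of tRNA charging 9 were lower after WPH, and 2 had an unadjusted p below 0.05 in either direction, where 3.39% of all genes did. Qrsl1 encodes the catalytic subunit of the amidotransferase that turns glutamyl-tRNA into glutaminyl-tRNA in mitochondria. It had 0.88, 1.02, 1.28 and 0.14 after AAM and -0.30, -0.83, -0.68 and -1.51 after WPH, with no overlap. The standardized difference of Qrsl1 was -3.33 (-5.59 to -0.99), with an unadjusted p of 0.00216 and an adjusted p of 0.9998 by limma, and it was -1.03 with median centring and 0.40 after quantile normalization. The other subunits, Gatb and Gatc, had -0.32 and 0.54, and Ears2, which makes the glutamyl-tRNA, had -0.45. Dtd1, which removes D-amino acids from tRNA, had -1.67 (-3.29 to 0.04, unadjusted p = 0.0453 by limma).

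Of the 11 genes that bring charged tRNA to the ribosome 7 were lower after WPH and 0 had an unadjusted p below 0.05. The elongation factor genes Tufm of mitochondria and Eef1a1 of the cytosol both had -0.66. Of 15 genes of the GCN2 and ATF4 arm 10 were lower and 0 had an unadjusted p below 0.05. Ddit3, a stress-induced transcription factor, had 1.5 (-0.16 to 3.07), and Slc7a11, the cystine transporter, had -1.34 (-2.87 to 0.27). The median standardized differences of the 3 lists were -0.41, -0.16 and -0.40, beside -0.058 for all genes.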

How the data were processed

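The deposited table holds 1 log2-like value for each probe set and array. Per the labels' protocols, 100 ng of RNA went into each biotin labelling, and the submitters' processing notes name R 2.7.2. How background, normalization and probe summary were handled was not given in the sources used here, so scale, centring and log base stay unknown. The median was 6.66 on each array. From 31099 probe sets 57 controls were left out. Symbols came from the platform annotation (20826 probe sets with 1 symbol, 436 with several, 9780 unnamed here), and the gene IDs of all 34 member genes matched RefSeq's GRCr8 table. The meals were compared with limma 3.58.1 under R 4.3.3, using lmFit and eBayes without covariates. Two-sided p-values were adjusted by Benjamini-Hochberg over 31042 probe sets, with a threshold of 0.05, and the fit was tested on simulated data. Intervals of the standardized difference are 95% noncentral t intervals on 6 degrees of freedom. The number of arrays limits the precision. Exact two-sided permutation tests used the 35 splits of the arrays.

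The members and lists were chosen with earlier results of these data known. Values by array are given for the 5 cytosolic and 5 mitochondrial genes of smallest unadjusted p by their representative probe sets. They are also given for members without overlap and for Lars1, Iars1 and Vars1, and values for the 2 genes of smallest p in each pathway list. Alternatives were the replicate number as a block, quantile normalization, median centring, brighter probe sets only, array weights, another variance prior, a fourth-root scale, 1 probe set per gene, the mean over a gene's probe sets, a threshold of 0.1 and leaving out each array. Some promoter sequence and some gene names are not reported here.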

Additional observations from a re-analysis of the deposited data

Results flagged for a closer look

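Within the 4 arrays of a meal, 1 array stood far from the other 3 in 6 of 128 groups examined, by a gap that, divided by the range, passed Dixon's 95% limit, where 6.4 are expected by chance. AAM replicate 3 was low for Aimp2 (0.854) and for the brighter probe set of Mars1 (0.877), and it was high for the mean of the interferon-stimulated genes (0.998). AAM replicate 4 was high for the dimmer probe set of Farsb (0.833). WPH replicate 1 was high for the brightest probe set of Eprs1 (0.922), and WPH replicate 4 was low for the brighter probe set of Gars1 (0.878).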

How the results depend on the processing

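No member probe set passed an adjusted p of 0.05 under any alternative run, and the adjusted p of the 20 named probe sets lay between 0.265 and 1.0. Over all probe sets the fourth-root scale made 18 calls. Members lower after WPH at an unadjusted p below 0.05 numbered 1 as deposited (1.86% of all probe sets), 2 with array weights (2.04%), 3 on the fourth-root scale (2.11%) and 1 to 5 when 1 array was left out (1.69% to 2.41%). Members higher numbered 0 as deposited (1.71%), 1 after quantile normalization (0.505%), 1 on the fourth-root scale (2.05%) and 0 to 1 when 1 array was left out (1.58% to 2.14%). Members without overlap numbered 2 as deposited (2.23%), 0 after quantile normalization (0.169%), 1 with median centring (0.209%), 1 with 1 probe set per gene (2.0%) and 2 to 6 when 1 array was left out (4.18% to 5.32%). Without AAM replicate 3 and WPH replicate 4, an alternative chosen after seeing the data, these 3 counts were 5 (1.96%), 1 (1.95%) and 9 (8.45%), and Tufm had 0.021. When 1 array was left out, the cytosolic median ran from -0.75 to -0.014 and the mitochondrial one from -0.77 to -0.22.

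Quantile normalization turned the standardized differences of Farsa (0.71), Rars2 (0.38), Tars2 (-0.45), the dimmer Wars1 probe set (0.14), Qrsl1 (0.40) and Slc7a11 (0.25). Median centring turned those of Aimp2 (-0.17) and Tars2 (-0.49). With 1 array left out, Lars1 ran from -0.94 to 0.27, Iars1 from -0.71 to 0.23 and Tufm from -1.17 to -0.23. The cause was not tested, beyond the share of all genes that shifted with each scaling.

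The labels give both meals replicate numbers 1 to 4. Same-numbered arrays had correlations of 0.157, 0.134, 0.064 and -0.0708 of their deviations from the group means. AAM replicates 1 and 2 correlated best with the WPH array of their own number. AAM replicate 3 correlated best with WPH replicate 4 (0.279) and AAM replicate 4 with WPH replicate 1 (0.129). With 4 arrays per group these correlations cannot show whether equal numbers mark a pairing. With the replicate number as a block, 2 members were lower at an unadjusted p below 0.05 (2.18% of all probe sets).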
